A study of Mus musculus with 6 samples.

Results

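Enzymes that break down amino acids were followed in mouse liver, as 38 genes chosen by name and sorted into 10 branches. All 38 were found among the 55536 genes of the files, and all 38 passed the rule on low counts that left 13299 genes tested. The branches are serine (2 genes), histidine (3), glutamine (1), the aromatic amino acids phenylalanine and tyrosine (4), tryptophan (6), the transaminases of aspartate, alanine and glyoxylate (6), glycine (3), proline (2), lysine (1) and the branched-chain amino acids (10). RNA was sequenced from livers of male C57BL/6 mice, an inbred strain, 6 weeks old when dosing began. In the PS-MP group (3 libraries) the mice received polystyrene microplastics by mouth, 0.4 mg per day, on 2 days a week for 8 weeks, and in the water group (3 libraries) water on the same schedule. No label ties a library to its own mouse, so every p-value reflects only how far these libraries spread, which may be technical.

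The liver is the main site of amino acid breakdown. The amino group is removed at a step that differs between pathways, and the carbon skeleton is fed into the citric acid cycle, glucose synthesis or ketone bodies, while the nitrogen goes to urea. Several first enzymes, among them serine dehydratase, tyrosine aminotransferase and tryptophan dioxygenase, are known for their control by glucagon and glucocorticoids. Transamination of branched-chain amino acids occurs mostly in muscle, and the liver takes up at the next step.

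Levels are given in FPKM, reads scaled to exon length and library size, and a fold change is the PS-MP to water ratio of FPKM + 0.5. In the limma-trend fit over all genes, 0 of the 38 enzymes passed an adjusted p of 0.05, against 0.489% of all genes tested (65 of 13299). The lowest adjusted p among them was 0.116, for Prodh. Limma-voom on the recovered reads also called 0 of 38, against 1.0% of all genes. At an unadjusted p under 0.05 there were 12 of the 38, against 13.1% of all genes. Of these, 10 had the higher mean in PS-MP, against 7.49% of all genes, and 2 had the lower mean, against 5.57%. The number was 5 without water replicate 1 (8.97% of all genes) and 6 without water replicate 3 (12.3% of all genes). The 12 were Prodh, Sds, Hal, Afmid, Amt, Got1, Gpt, Kynu, Gls2, Kmo, Tdo2 and Dbt.

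As a set, 29 of the 38 had a positive log2 fold change, against 53.7% of all genes tested. Their median log2 fold change was 0.10, and that of all genes tested was 0.01. All PS-MP values lay above all water values for 9 enzymes, against 11.1% of all genes, and below them for 4, against 8.12%. The 9 were Prodh, Sds, Gpt, Afmid, Hal, Gls2, Tdo2, Kmo and Bckdha, and the 4 were Amt, Kynu, Gldc and Hgd. PS-MP replicate 3 held the highest value of 27 of the 38 enzymes, against 26.6% of all genes. Without that library 23 of the 38 fold changes were positive, against 51.3% of all genes, and the median was 0.03. Relative to the mean of the water libraries, the median enzyme stood at 0.05, 0.03 and 0.23 (log2) in PS-MP replicates 1, 2 and 3. By this measure most of the set's difference lay in the third. Water replicate 1 held the lowest value of 15 of the 38 enzymes, against 16.2% of all genes. PS-MP replicate 2 held that of 11, against 14.5%.

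PS-MP replicate 3 also stood apart in transcripts of other tissues. The summed level of 10 brain markers was 1.86 to 2.17 FPKM in water and 5.78, 3.42 and 38.6 FPKM in PS-MP replicates 1, 2 and 3, with all 10 higher on average in PS-MP. The 10 hepatocyte markers (1 of them, Tat, also in the set) summed to 44510 to 47610 FPKM in water. In PS-MP they summed to 37830 to 45260 FPKM, the lowest in replicate 3. Alb made up most of this sum, at 31420, 33950 and 30950 FPKM in water and 32190, 29820 and 24620 FPKM in PS-MP. Relative to the water mean, the median hepatocyte marker stood at -0.036, 0.0014 and -0.037 (log2) in PS-MP replicates 1, 2 and 3. Of 6 fat markers, all 6 had the lower mean in PS-MP, but the libraries of a group differed widely. Their sum was 50.7, 27.7 and 37.0 FPKM in water and 22.2, 20.8 and 36.0 FPKM in PS-MP. Cfd, Adipoq, Plin1, Fabp4 and Ucp1 were highest in water replicate 1, and Cidec was lowest there. Cfd, for example, was at 14.6, 0.32 and 5.45 FPKM in water and 0.0, 0.0 and 5.38 FPKM in PS-MP. The 5 red cell markers summed to 101.5 to 117.2 FPKM in water and 88.4 to 170.8 in PS-MP, again highest in replicate 3. Markers of Kupffer cells, sinusoidal endothelium, stellate cells and bile duct cells had summed levels that overlapped between the groups, as did those of neutrophils, exocrine pancreas and kidney tubule (Ly6g and the kidney genes Kap, Slc22a6, Slc5a2 and Umod were at 0 in every library). The 9 lymphocyte markers summed to 8.96 to 10.8 FPKM in water and 6.91 to 8.69 in PS-MP. The part of these other cells in the results was not tested. In whole liver, fewer cells of a type and less RNA per cell cannot be told apart.

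**Figure D1:**
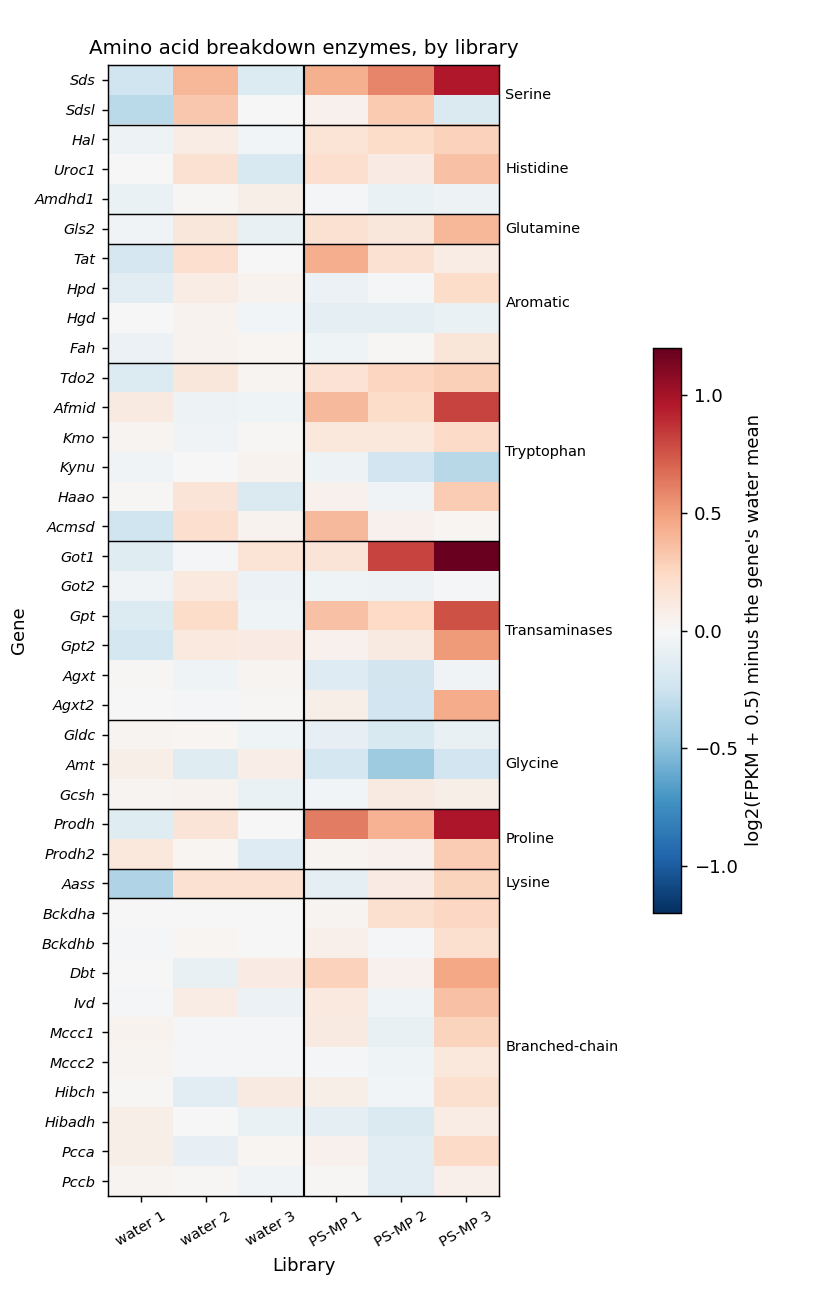
Level of each of the 38 enzymes (rows, grouped by branch) in each library (columns), as log2(FPKM + 0.5) minus the gene's mean in the 3 water libraries; red is above and blue below that mean. PS-MP replicate 3 is the reddest column, with the highest value of 27 of 38 enzymes, and Prodh, Sds, Got1, Gpt and Afmid are the reddest rows.

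To show what lies before the start of some enzymes of the set, the 250 bases upstream of the RefSeq start (GRCm38.p6) are printed for Got1, Afmid and Hal. These are the enzymes with an unadjusted p under 0.05 whose RefSeq start lies within 10 bases of the GENCODE M21 start. The windows are chr19:43524606-43524855 (minus strand), chr11:117825669-117825918 (plus strand) and chr10:93488518-93488767 (plus strand). Capitals mark matches, on either strand, to any of 6 motifs: the E-box CACGTG, bound by clock factors, the D-box TTATGTAA, the cAMP response core TGACG, the glucocorticoid receptor core AGAACA, the amino acid response core TGATGNAA, bound by C/EBP and ATF factors, and the common promoter element CCAAT.
Got1: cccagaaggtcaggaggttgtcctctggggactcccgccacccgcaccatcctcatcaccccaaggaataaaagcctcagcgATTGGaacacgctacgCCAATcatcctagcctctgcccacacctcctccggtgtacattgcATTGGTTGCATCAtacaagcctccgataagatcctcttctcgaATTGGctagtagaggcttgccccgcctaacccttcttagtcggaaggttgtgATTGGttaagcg
Afmid: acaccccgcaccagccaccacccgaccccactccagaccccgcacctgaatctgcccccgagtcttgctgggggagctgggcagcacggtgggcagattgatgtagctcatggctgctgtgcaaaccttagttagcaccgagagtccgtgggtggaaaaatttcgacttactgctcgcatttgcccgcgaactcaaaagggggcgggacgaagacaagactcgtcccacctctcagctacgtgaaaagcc
Hal: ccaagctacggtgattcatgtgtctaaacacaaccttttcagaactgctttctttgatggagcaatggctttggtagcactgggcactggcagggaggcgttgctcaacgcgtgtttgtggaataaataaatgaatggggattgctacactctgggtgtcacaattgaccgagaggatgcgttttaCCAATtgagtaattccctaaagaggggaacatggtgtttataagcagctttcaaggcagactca
The Got1 window held 5 matches to the promoter element CCAAT and 1 to the amino acid response core TGATGNAA, which adjoins one of them without overlap. The search for the latter was added after this window was seen. The Hal window held 1 CCAAT match, and the Afmid window held none of the motifs. Of 32851 upstream windows in the table, 33.8% held CCAAT and 3.45% held TGATGNAA. Among the 32 enzymes with a window, 17 held CCAAT and 1, Got1, held TGATGNAA. The E-box was found in 1 of the 32 (6.02% of all windows) and the D-box in 0 of 32 (0.819%). The cAMP core was found in 3 of 32 (17.8%) and the glucocorticoid core in 4 of 32 (16.1%). A match is a description, not a bound site. Dbt, Gls2, Gpt, Kynu, Sds and Sdsl were not matched.

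Proline breakdown held the enzyme with the smallest p. Prodh (chromosome 16, 18060357 to 18090203) encodes proline dehydrogenase, which oxidises proline in the mitochondrion. Its level was 12.98, 16.1 and 14.3 FPKM in water replicates 1, 2 and 3 and 22.4, 19.4 and 28.7 FPKM in PS-MP replicates 1, 2 and 3. Every PS-MP library was above every water library. The means were 14.5 ± 1.57 and 23.5 ± 4.74 FPKM (SD, n = 3 each), a log2 fold change of 0.67 ± 0.14 (SE; adjusted p = 0.116 by limma). Adjusted p was 0.0514 with limma-voom, and ran from 0.103 to 0.366 over the other alternatives. Without PS-MP replicate 3 the log2 fold change was 0.52. Prodh2, which oxidises hydroxyproline, had 45.2, 42.2 and 37.1 FPKM in water and 42.4, 42.8 and 51.2 FPKM in PS-MP, with overlapping groups and a log2 fold change of 0.13 (95% confidence interval -0.11 to 0.37). Beyond the pair, Aldh4a1, which carries proline's product on to glutamate, had means of 18.6 and 22.3 FPKM (log2 fold change 0.25, adjusted p = 0.368 by limma).

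Serine breakdown held a pair of neighbouring genes with unlike values. Sds (chromosome 5, 120476526 to 120483932) encodes serine dehydratase, which turns serine into pyruvate for glucose synthesis. It was at 74.0, 115.3 and 77.6 FPKM in water and 117.6, 130.7 and 169.7 FPKM in PS-MP. The groups did not overlap, but water replicate 2 came within 3 FPKM of the lowest PS-MP library. The log2 fold change was 0.66 ± 0.19 (SE; adjusted p = 0.213 by limma). Sds shares exon sequence with Plbd2 and Gm15690 on the other strand, and since the sources used here do not give the use of strand in counting, its reads cannot be fully separated from theirs. Sdsl, the related serine dehydratase-like gene (chromosome 5, 120458186 to 120472810), had 9.77, 15.5 and 12.3 FPKM in water and 12.8, 15.5 and 10.9 FPKM in PS-MP. Its log2 fold change was 0.07 (95% confidence interval -0.34 to 0.48). Both genes were lowest in water replicate 1.

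Histidine is opened by histidine ammonia-lyase, the product of Hal (chromosome 10, 93488768 to 93519304). Hal was at 92.4, 102.5 and 94.2 FPKM in water and at 108.1, 112.4 and 116.9 FPKM in PS-MP, with no overlap and little spread within a group. The log2 fold change was 0.22 ± 0.07 (SE; adjusted p = 0.237 by limma). Uroc1, urocanase, the next enzyme, had 96.5, 109.7 and 85.0 FPKM in water and 110.9, 103.6 and 123.2 FPKM in PS-MP. Its groups overlapped (log2 fold change 0.22, 95% confidence interval -0.03 to 0.46). Amdhd1, which acts after urocanase, had 72.2 to 79.8 FPKM in water and 72.2 to 75.0 in PS-MP, a log2 fold change of -0.05. The first 2 steps thus had like fold changes and the third a value near 0. The median of the branch was 0.22, and 0.12 without water replicate 3.

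Glutamine is split by the liver-type glutaminase Gls2 (chromosome 10, 128194457 to 128210004), an enzyme of periportal hepatocytes. It was at 73.4, 82.8 and 71.0 FPKM in water and 85.9, 83.0 and 100.04 FPKM in PS-MP. The highest water and lowest PS-MP libraries were within 1 FPKM of each other. Its log2 fold change was 0.24 (95% confidence interval 0.02 to 0.46, adjusted p = 0.334 by limma), and 0.16 without PS-MP replicate 3. Gls2 overlaps Spryd4 on the other strand.

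**Figure D2:**
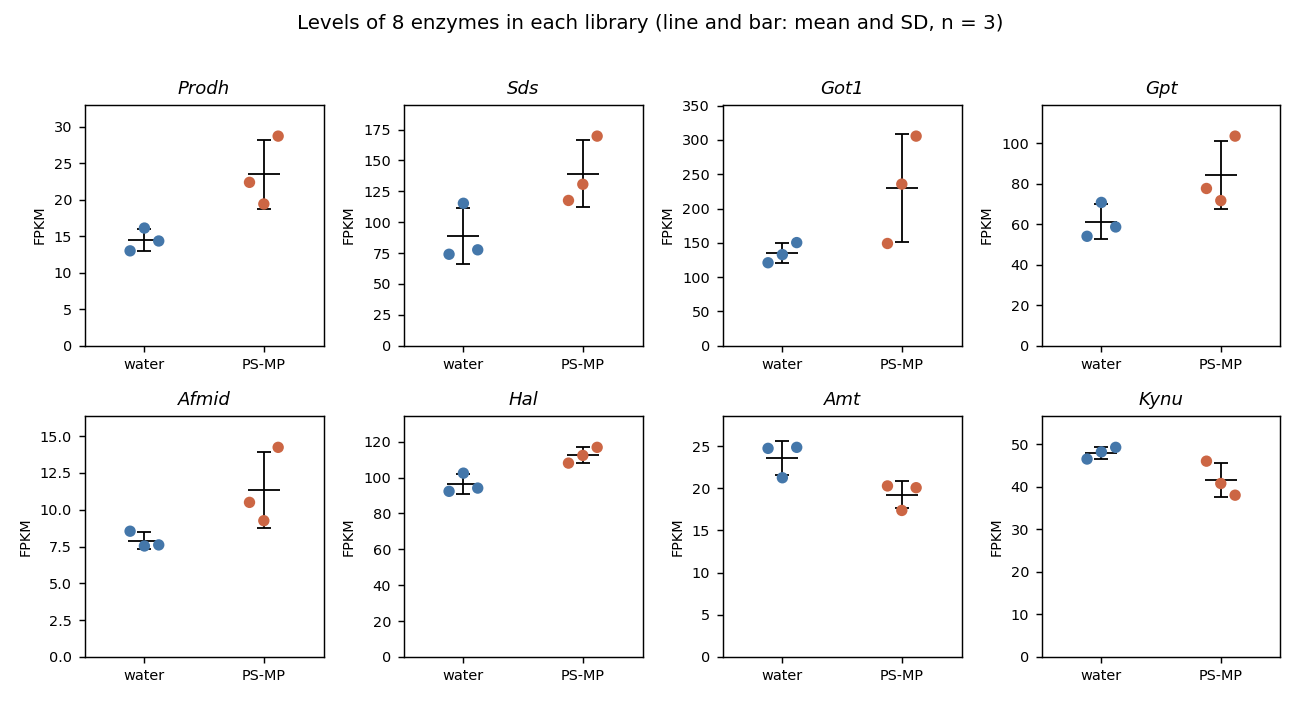
Level in FPKM (vertical axes, from 0) of 8 enzymes in the 3 water (blue) and 3 PS-MP (orange) libraries, with the mean and SD of each group as a line and bar. Prodh, Sds, Gpt, Afmid and Hal have every PS-MP point above every water point, Amt and Kynu every PS-MP point below, and Got1 overlaps through PS-MP replicate 1, at 149.0 FPKM.

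Among the transaminases, which move amino groups between amino acids and keto acids, the cytosolic forms of aspartate and alanine transaminase had an unadjusted p under 0.05 and their mitochondrial partners did not; the differences between partners were not tested. Got1 (chromosome 19, 43499752 to 43524605), cytosolic aspartate transaminase, was at 120.9, 132.8 and 150.3 FPKM in water and 149.0, 235.6 and 305.6 FPKM in PS-MP. It had the largest fold change of the 38 (log2 fold change 0.72 ± 0.23 SE, adjusted p = 0.261 by limma), with the PS-MP values spread over a wide range. PS-MP replicate 1 lay within the water range. Without PS-MP replicate 3 the log2 fold change was 0.48, and without PS-MP replicate 1 it was 0.998 with an adjusted p of 0.0616 by limma. Got2, the mitochondrial form, was at 73.1 to 83.2 FPKM in water and 73.4 to 75.5 in PS-MP (log2 fold change -0.05, 95% confidence interval -0.21 to 0.11).

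Gpt (chromosome 15, 76695716 to 76699686), cytosolic alanine transaminase, had 54.1, 70.8 and 58.7 FPKM in water and 77.7, 71.7 and 103.6 FPKM in PS-MP. The groups did not overlap, by less than 1 FPKM, and the log2 fold change was 0.45 (SE 0.15, adjusted p = 0.274 by limma), or 0.29 without PS-MP replicate 3. Gpt2, the mitochondrial form, had 122.9, 153.9 and 151.8 FPKM in water and 147.2, 153.4 and 202.7 FPKM in PS-MP (log2 fold change 0.22, 95% confidence interval -0.10 to 0.55). Agxt, which clears glyoxylate with alanine as donor, had 93.6 to 98.9 FPKM in water and 82.7 to 93.6 in PS-MP, a log2 fold change of -0.14 (95% confidence interval -0.30 to 0.02). Agxt2, a mitochondrial transaminase that uses beta-aminoisobutyrate and dimethylarginines, was at 36.3 to 36.9 FPKM in water and 31.2, 38.5 and 49.9 FPKM in PS-MP replicates 2, 1 and 3. Its PS-MP values lay on both sides of the narrow water range.

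Ratios within a library, here of enzymes related by reaction or pathway, do not depend on how libraries are scaled. The Got1 to Got2 ratio of FPKM was 1.624, 1.596 and 2.057 in water and 2.014, 3.212 and 4.048 in PS-MP. The Gpt to Gpt2 ratio was 0.44, 0.46 and 0.39 in water and 0.53, 0.47 and 0.51 in PS-MP, a separation of less than 0.01 between the nearest libraries. The Prodh to Prodh2 ratio was 0.29, 0.38 and 0.39 in water and 0.53, 0.45 and 0.56 in PS-MP. For Sds to Sdsl the ratio was 7.58, 7.42 and 6.32 in water and 9.18, 8.45 and 15.6 in PS-MP. These last 3 ratios did not overlap between the groups, whereas those of Got1 to Got2 and of Agxt to Agxt2 (2.58 to 2.68 in water, 1.88 to 2.65 in PS-MP) did. The pairs were chosen after the values were seen and were not tested.

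**Figure D3:**
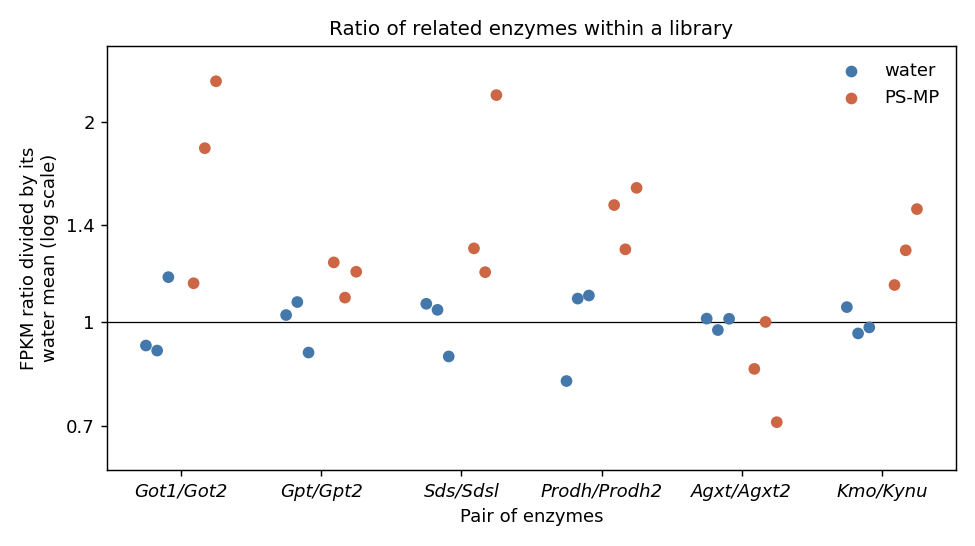
FPKM ratio of 6 pairs of enzymes related by reaction or pathway in each water (blue) and PS-MP (orange) library, divided by the mean ratio of the water libraries, on a log axis. The PS-MP points of Gpt/Gpt2, Sds/Sdsl, Prodh/Prodh2 and Kmo/Kynu all lie above the water points, and those of Got1/Got2 and Agxt/Agxt2 overlap them.

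The kynurenine pathway of tryptophan held 4 of the 12 enzymes with a small unadjusted p, in both directions. Tdo2 (chromosome 3, 81957090 to 81976202), tryptophan dioxygenase, opens the pathway. It was at 710.7, 873.5 and 813.8 FPKM in water and 901.0, 953.1 and 968.3 FPKM in PS-MP, with no overlap (log2 fold change 0.24 ± 0.10 SE, adjusted p = 0.367 by limma). Afmid (chromosome 11, 117825924 to 117839908), the formamidase of the next step, was at 8.54, 7.54 and 7.61 FPKM in water and 10.5, 9.25 and 14.2 FPKM in PS-MP (log2 fold change 0.47 ± 0.15 SE, adjusted p = 0.237 by limma). Without PS-MP replicate 3 its log2 fold change was 0.31. Afmid overlaps Tk1 on the other strand.

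Kynurenine can then be hydroxylated by the product of Kmo. The product of Kynu cleaves kynurenine or its hydroxylated form, so it can also act after Kmo. These genes had opposite signs. Kmo (chromosome 1, 175620381 to 175662116) had 68.0, 64.3 and 67.1 FPKM in water and 72.6, 72.5 and 78.0 FPKM in PS-MP, all above water (log2 fold change 0.16 ± 0.06 SE, adjusted p = 0.334 by limma). Kynu (chromosome 2, 43555329 to 43682715) had 46.5, 48.2 and 49.3 FPKM in water and 46.0, 40.8 and 38.02 FPKM in PS-MP, all below water (log2 fold change -0.21 ± 0.08 SE, adjusted p = 0.333 by limma). Their ratio, Kmo to Kynu, was 1.46, 1.33 and 1.36 in water and 1.58, 1.78 and 2.05 in PS-MP. The later enzymes overlapped between groups: Haao, which closes the path to quinolinate, had a log2 fold change of 0.10 (36.0 to 45.3 FPKM in water, 39.4 to 50.3 in PS-MP). Acmsd, which diverts the path away from NAD, had 0.16 (6.89 to 9.54 FPKM in water, 8.38 to 10.96 in PS-MP).

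Phenylalanine and tyrosine breakdown held the most abundant of the 38 transcripts and none with a small p. Tat, tyrosine aminotransferase, was at 850.2, 1126 and 982.2 FPKM in water and 1326, 1110 and 1041 FPKM in PS-MP. Unlike most of the set it was lowest among PS-MP libraries in replicate 3, and the groups overlapped (log2 fold change 0.23, 95% confidence interval -0.08 to 0.55). Hpd, the dioxygenase that follows, had 973.0, 1127 and 1091 FPKM in water and 1010, 1050 and 1238 FPKM in PS-MP (log2 fold change 0.05, 95% confidence interval -0.21 to 0.30). Hgd, homogentisate dioxygenase, had 242.4, 249.9 and 237.2 FPKM in water and 224.3, 223.8 and 230.1 FPKM in PS-MP. All of its PS-MP values were below water, with a log2 fold change of -0.10 (95% confidence interval -0.25 to 0.04). Fah, the last enzyme, had 0.04 (95% confidence interval -0.14 to 0.21).

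The glycine cleavage system, which splits glycine into carbon dioxide, ammonia and a folate-bound carbon, was the branch with a negative median (log2 fold change -0.13). Amt (chromosome 9, 108296853 to 108302302), its aminomethyltransferase, was at 24.8, 21.3 and 24.9 FPKM in water and 20.3, 17.4 and 20.1 FPKM in PS-MP, with no overlap. The log2 fold change was -0.29 (SE 0.09, adjusted p = 0.252 by limma), and -0.32 without PS-MP replicate 3. Gldc, the decarboxylase that starts the cycle, had 42.9, 42.5 and 40.4 FPKM in water and 39.0, 36.8 and 39.4 FPKM in PS-MP. Its PS-MP values also lay below water (log2 fold change -0.13, 95% confidence interval -0.27 to 0.02). Gcsh, the lipoate-bearing carrier protein, had 35.5 to 38.5 FPKM in water and 36.6 to 40.3 in PS-MP, a log2 fold change of 0.05. None of the 3 was highest in PS-MP replicate 3.

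Lysine breakdown was represented by Aass, the bifunctional enzyme of the saccharopine path. It was at 161.0, 235.4 and 234.8 FPKM in water and 191.3, 221.2 and 250.3 FPKM in PS-MP. Water replicate 1 was the lowest, the groups overlapped, and the log2 fold change was 0.08 (95% confidence interval -0.29 to 0.46).

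Breakdown of leucine, isoleucine and valine held 10 genes with a median log2 fold change of 0.08 and 1 unadjusted p under 0.05. The dehydrogenase complex that commits their keto acids holds the products of Bckdha, Bckdhb and Dbt, and of Dld, which is outside the set. Bckdha was at 20.6, 20.7 and 20.8 FPKM in water and 21.3, 23.8 and 24.7 FPKM in PS-MP, all above water (log2 fold change 0.16, 95% confidence interval -0.01 to 0.33), and it overlaps B3gnt8 on the other strand. Dbt (chromosome 3, 116513070 to 116549981), the transacylase core, was at 26.6, 25.1 and 28.6 FPKM in water and 32.6, 27.7 and 37.0 FPKM in PS-MP. PS-MP replicate 2 lay within the water range (log2 fold change 0.26 ± 0.11 SE, adjusted p = 0.367 by limma), and the log2 fold change was 0.16 without PS-MP replicate 3. Bckdhb, the last gene of the complex within the set, had 0.08.

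Downstream of the complex the fold changes ran from -0.06 to 0.14, with an interval that included 0 for each of the 7 genes. In the leucine arm, Ivd (isovaleryl-CoA dehydrogenase) had a log2 fold change of 0.14, and the carboxylase subunits Mccc1 and Mccc2 had 0.10 and 0.02. In the valine arm, Hibch (a hydrolase) and Hibadh (a dehydrogenase) had 0.08 and -0.06. Pcca and Pccb, the subunits of propionyl-CoA carboxylase, had 0.05 and -0.02. Pccb, the most abundant of the branch, was at 51.9, 51.2 and 49.5 FPKM in water and 51.3, 46.6 and 53.2 FPKM in PS-MP (95% confidence interval -0.18 to 0.14). All 10 genes of the branch were highest in PS-MP replicate 3, and without that library the branch's median was 0.01 and 6 of 10 were positive. Mccc1 and Pcca overlap Gm15952 and Ggact on the other strand.

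**Figure D4:**
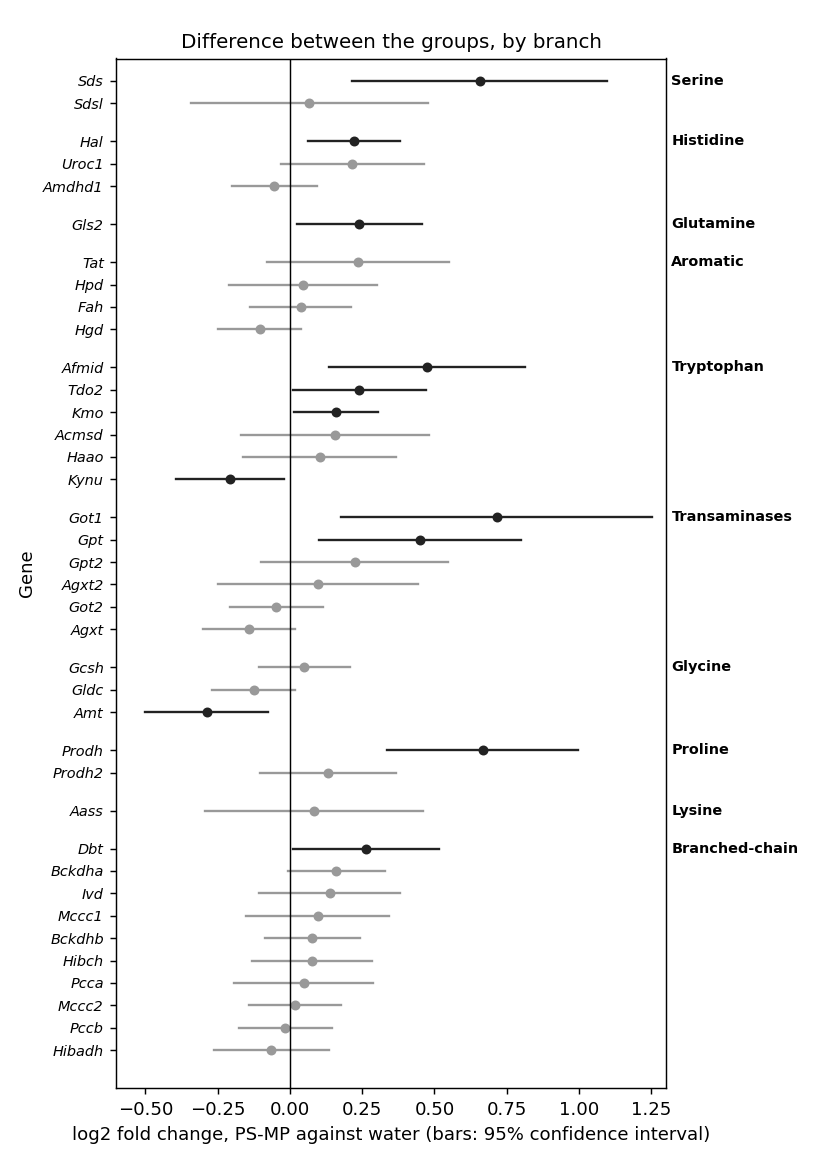
Log2 fold change of PS-MP against water (horizontal axis) for each of the 38 enzymes, by branch, with 95% confidence intervals from limma as bars; black marks an unadjusted p under 0.05 and grey the rest. Prodh, Sds and Got1 lie near 0.7, Amt and Kynu are the black points below 0, and the intervals of 9 of the 10 branched-chain genes include 0.

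Side by side, the medians of the branches (log2 fold change) were 0.40 for proline, 0.36 for serine, 0.24 for glutamine, 0.22 for histidine, 0.16 for the transaminases, 0.16 for tryptophan, 0.08 for lysine, 0.08 for branched-chain, 0.04 for aromatic and -0.13 for glycine. The upper and lower ends of this order rest on 1 to 3 genes each. Without PS-MP replicate 3 the median was 0.28 for proline, 0.35 for serine, 0.17 for tryptophan, 0.01 for the transaminases, -0.03 for aromatic and -0.14 for glycine. The enzymes listed as first in the 10 branches were Sds, Hal, Gls2, Tat, Tdo2, Got1, Gldc, Prodh, Aass and Bckdha. They had a median of 0.24 with 9 of 10 positive, and the 28 others, listed as later, had 0.07 with 20 positive. The list was set by choice. The transaminases act side by side and have no first step, and Tat opens tyrosine but not phenylalanine breakdown. The 16 enzymes assigned to the cytosol had 0.19, with 13 positive, and the 22 assigned to the mitochondrion 0.08, with 16 positive. Each enzyme was given a single compartment, and Agxt, which also lies in peroxisomes, was counted with the mitochondrion. Without PS-MP replicate 3 the medians were 0.21 and 0.01 for first and later enzymes and 0.19 and 0.01 for cytosol and mitochondrion. Other omissions brought the compartments closer. Without water replicate 1 the medians were 0.18 and 0.07 for first and later enzymes and 0.12 and 0.08 for cytosol and mitochondrion. Without PS-MP replicate 1 those of cytosol and mitochondrion were 0.13 and 0.09. No test of a difference between branches, steps or compartments was made.

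Other enzymes of amino acid breakdown, 57 by list and 54 of them tested, had a median log2 fold change of 0.05 with 33 positive, and 0 changed with limma-trend or limma-voom. At an unadjusted p under 0.05, 3 had the higher mean in PS-MP (among them Aldh4a1 and, of lysine breakdown, Dhtkd1) and 4 the lower (Grhpr, Bckdk, Ppm1k and Acat1), a share of the 54 near the 13.1% of all genes. Bckdk, the kinase that switches off the branched-chain dehydrogenase, was at 3.69, 3.99 and 3.11 FPKM in water and 2.90, 2.80 and 2.74 FPKM in PS-MP (log2 fold change -0.30, adjusted p = 0.286 by limma). Ppm1k, the phosphatase that switches the same complex on, had means of 39.4 ± 9.73 and 29.5 ± 1.85 FPKM (SD, n = 3 each) with overlapping groups. Grhpr, a glyoxylate reductase, had 83.6 to 99.99 FPKM in water and 68.8 to 76.3 in PS-MP, with no overlap (log2 fold change -0.31, adjusted p = 0.184 by limma). By list, the medians were -0.03 for branched-chain (15 tested), -0.04 for the sulfur amino acids (9; smallest p for Cbs, at -0.17), and 0.01 for serine, threonine and glycine (8; Dld, at 0.12). They were 0.06 for aromatic and tryptophan (9), 0.12 for lysine (6; Dhtkd1, at 0.34) and 0.13 for histidine, glutamate and proline (7).

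Of 18 transporters of amino acids, 15 had a positive log2 fold change (median 0.15), against 53.7% of all genes, and 7 an unadjusted p under 0.05, all with the higher mean in PS-MP, against 7.49% of all genes. Slc7a2, a carrier of cationic amino acids, was the only one that changed (128.4, 130.3 and 135.3 FPKM in water, 209.9, 229.6 and 242.0 FPKM in PS-MP, adjusted p = 0.0139 by limma). That call was lost without water replicate 1, water replicate 3 or PS-MP replicate 2, and with no low-count rule. Of 16 regulators of these pathways, 13 were positive (median 0.12), 0 changed with limma-trend or limma-voom and 6 had an unadjusted p under 0.05, all with the higher mean in PS-MP, where the shares of all genes are the same as for the transporters. Nr3c1, which encodes the glucocorticoid receptor, had 10.5, 9.42 and 10.2 FPKM in water and 13.3, 12.3 and 14.04 FPKM in PS-MP (log2 fold change 0.38 ± 0.08 SE, adjusted p = 0.108 by limma). Onecut1, a hepatocyte transcription factor, had 0.53, 0.55 and 0.57 FPKM in water and 1.06, 4.15 and 4.53 FPKM in PS-MP (adjusted p = 0.142 by limma), and it passed without PS-MP replicate 1. Klf15, a factor known for driving amino acid breakdown and chosen after its values were seen, had means of 56.7 ± 3.71 and 57.1 ± 0.028 FPKM (SD, n = 3 each). Among other genes of the periportal zone, where many of these enzymes lie, 9 of 10 were positive (median 0.22) and 0 changed with limma-trend or limma-voom. At an unadjusted p under 0.05, 3 had the higher mean in PS-MP (Aldh1b1, with the smallest p, at a log2 fold change of 0.44, and Ass1 and Arg1 of the urea cycle, at 0.39 and 0.33) and 1 the lower. The latter, G6pc, the glucose-releasing phosphatase, had the largest difference of the list, with 286.1, 185.2 and 204.2 FPKM in water and 184.9, 156.2 and 138.7 FPKM in PS-MP (log2 fold change -0.48, adjusted p = 0.301 by limma). Of 9 genes of the opposite, pericentral zone, 8 were tested, with 4 positive and a median of 0.03. The cytochrome P450 gene Cyp2a5 changed (91.5, 113.2 and 85.3 FPKM in water, 268.9, 270.1 and 294.9 FPKM in PS-MP, adjusted p = 0.00831 by limma). At an unadjusted p under 0.05, 2 pericentral genes had the higher mean in PS-MP (Cyp2a5 and Slc1a2, at a log2 fold change of 0.43) and 1 the lower (Lgr5, at -0.52). For both zones, the shares over all genes tested were 53.7% positive and 0.489% changed. At an unadjusted p under 0.05 they were 7.49% with the higher mean in PS-MP and 5.57% with the lower. No test compared the zones.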

How the data were processed

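The authors deposited FPKM per gene for each library. The submitters' processing notes name Trimmomatic 0.38, HISAT2 2.1.0, featureCounts 1.6.0 and DESeq2 1.22.1. They name GRCh38, but all 55536 identifiers are mouse genes of GENCODE M21 (GRCm38), which gave symbols, coordinates and exon lengths. FPKM times exon length gave whole reads (within 0.001) for 100.0% of genes above 0. Library totals were 13082210 to 16948343 reads, and the enzymes had 222 to 58954 reads per library. No 2 libraries of a group were identical or agreed within sampling noise (chi-square 9.99 to 28.3 per degree of freedom).

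Genes with at least 0.66 CPM in 3 libraries and 15 reads in all were tested with limma-trend (limma 3.58.1, R 4.3.3) on log2(FPKM + 0.5), fitted on group alone over the 6 libraries, with p-values adjusted by Benjamini-Hochberg across the genes tested. The code was tested on simulated data. Members, branches and lists were chosen with earlier results of these data known. Values in every library are given for enzymes with an unadjusted p under 0.05. They are also given for the enzyme listed as first, the most abundant and the smallest-p enzyme of each branch. In the other lists, changed genes and the gene with the smallest p are named; further names were chosen after their values were seen. A gene of the wider lists is not reported here. Alternatives were pseudocounts, low-count rules, scalings, limma-voom, robust empirical Bayes, a replicate block and leaving out each library. No label gives a batch.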

Additional observations from a re-analysis of the deposited data

How the results depend on the processing

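In all 16 alternatives 0 of the 38 enzymes passed, and 29 of the 38 kept the sign of their log2 fold change. The number of changed genes overall was 0 with no low-count rule (2064 with an unadjusted p under 0.05), 133 with limma-voom and 0 to 36 with 1 library left out (0 without water replicate 3, where limma-trend gave 1641 an unadjusted p under 0.05). Of the wider lists of enzymes, transporters and regulators, 1 gene changed; the number was 0 with no low-count rule and 0 to 2 with 1 library left out. The median of the histidine branch ran from 0.12 to 0.27 with 1 library left out, and that of all 38 from 0.03 to 0.16. Sign changes were limited to enzymes near 0. With 1 library left out the log2 fold change ran from -0.093 to 0.23 for Sdsl, -0.043 to 0.10 for Hpd, -0.016 to 0.080 for Fah, -0.083 to 0.010 for Got2, -0.076 to 0.26 for Agxt2, -0.10 to 0.18 for Aass, -0.04 to 0.051 for Mccc2, -0.045 to 0.14 for Pcca and -0.055 to 0.038 for Pccb. Mccc2 was -0.0036 with TMM and -0.00035 with median-of-ratios scaling. The causes were not tested.

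With the replicate number of the labels as a replicate block, 23 genes changed and 0 of the 38 did. The deviations of same-numbered libraries had correlations of -0.036, 0.047 and -0.010. The labels do not say whether the numbers pair the libraries, and these values cannot decide it.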
